A study of Homo sapiens with 4 samples.

Results

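The cytosolic HSP70 and HSP90 chaperones were described in the Kasumi-1 line with and without ANP32B knockdown. They are represented by 10 genes: the inducible HSP70 genes HSPA1A, HSPA1B and HSPA6, the HSPA6 copy HSPA7, the constitutive HSP70 gene HSPA8, the HSP110 genes HSPA4 and HSPH1, the HSP90 genes HSP90AA1 and HSP90AB1, and the J-domain gene DNAJB1. They were taken by name from a table of 18567 genes, and all 10 were listed. All 10 also passed the filter of at least 1 TPM (a level scaled for transcript length and to the same total in every library) in at least 2 samples, which left 16817 genes. The genes were chosen by name with their measured TPM differences between NC and sh-ANP32B already known, so the values of these 10 genes are a description and no test is read from them.

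Kasumi-1 is an acute myeloid leukemia line that carries the RUNX1-RUNX1T1 fusion. Total RNA was sequenced from 2 samples named NC and 2 named sh-ANP32B. By the labels the NC cells had no treatment and no hairpin. The methods instead speak of a control hairpin, sh-NC. The sh-ANP32B cells carry a lentiviral short hairpin RNA against ANP32B and, by the methods, were selected with puromycin. The study made 3 such hairpins, and the labels tell neither which was used nor whether the numbers 1 and 2 stand for repeats of the same hairpin, and they give no time after infection. Nothing states that the samples came from separate cultures, so the spread, and every p-value from it, is that between these samples and may be technical. With 2 samples a group, exact permutation gives no p below 0.333, and group differences across genes were therefore tested with limma on log2(TPM + 1) over all 16817 genes.

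HSP70 proteins bind short hydrophobic stretches of unfolded proteins in a cycle of ATP binding and hydrolysis that J-domain proteins such as DNAJB1 start and that nucleotide exchange factors, the HSP110 proteins among them, complete. HSP90 takes over many of these clients late in folding, kinases and steroid receptors in particular. Heat and other protein-damaging stress raise the inducible members through the transcription factor HSF1, which binds as a trimer to repeats of nGAAn called heat shock elements, while HSPA8 and HSP90AB1 are abundant in unstressed cells.

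The targeted gene was checked first. ANP32B was at 384 and 392 TPM in the NC samples and at 51.8 and 41.2 TPM in the sh-ANP32B samples, and fell by 3.04 on the log2 scale (SE 0.15, limma adjusted p = 0.00516). The myeloid markers SPI1 and CD33 and the fusion gene RUNX1T1 were present in every sample. KIT was at no more than 3.41 TPM, and CD34 and MPO were not analysed here. No read depth can be recovered from TPM, so no counting error is given. The sh-ANP32B samples also differed from each other by the GC content of transcripts: across 15427 genes GC content and the difference of sample 2 from sample 1 had a Spearman rho of 0.58, against -0.21 in NC. Mitochondrial genes took 12.9% and 13.1% of the NC signal and 11.4% and 8.43% of the sh-ANP32B signal.

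The 10 genes split into 5 that were higher and 5 that were lower in both sh-ANP32B samples than in both NC samples. The higher genes were HSPA1A, HSPA1B, HSPA6, HSPA7 and DNAJB1, none above 39.7 TPM in NC, and the lower ones included the 3 most abundant, HSP90AB1, HSPA8 and HSP90AA1. Groups without overlap were common, at 54.6% of all genes tested, 33.2% with sh-ANP32B higher and 21.4% with it lower. At a limma adjusted p under 0.05 the fit called 3 of the 10, HSPA6 and HSPA7 higher and HSPA8 lower, where 3.32% of all genes were past that threshold, 2.14% higher and 1.18% lower. HSPA8 was close to the threshold, at a limma adjusted p of 0.0440. Since the 10 genes were chosen with these differences known, the calls are a description and lend no support. Without NC sample 1 or NC sample 2 the log2 fold change was -0.84 or -0.83 for HSPA8. It was 2.46 or 1.87 for HSPA6 and 2.12 or 2.25 for HSPA7. The median log2 fold change was 0.03 over the 10 genes and 0.08 over all genes.

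**Figure D1:**
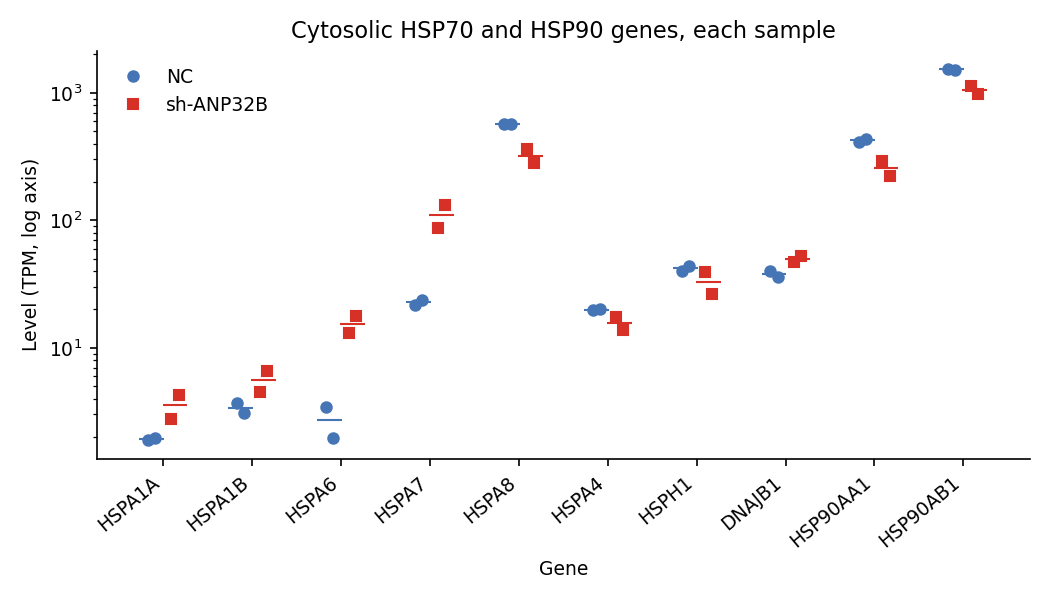
Level of each chaperone gene in TPM on a log axis, with circles for the 2 NC samples, squares for the 2 sh-ANP32B samples and lines at the group means. The sh-ANP32B squares lie above the NC circles for HSPA1A, HSPA1B, HSPA6, HSPA7 and DNAJB1 and below them for the other five.

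In the 250 bases before each start site in the RefSeq promoters (GRCh38.p14), 2 patterns were searched on both strands: a heat shock element of 3 units, GAANNTTCNNGAA or TTCNNGAANNTTC, and one of 2 units, GAANNTTC or TTCNNGAA, which also lies inside every 3-unit match. Among 35116 promoters 0.441% held a 3-unit and 11.582% a 2-unit match, and counted by gene 0.56% and 13.96% of 27305 genes had one in at least 1 promoter. Of the 9 chaperone genes with a RefSeq promoter, 7 had a 2-unit match and 4 a 3-unit match in at least 1 promoter. The 4 were HSPA6, which was higher in sh-ANP32B, and HSPA8, HSP90AA1 and HSP90AB1, which were lower. HSPA1A, HSPA1B and DNAJB1 had 2-unit matches, and these letters were not in the windows of HSPA4 and HSPH1. The matching stretches are shown 5′ to 3′ on the strand of the gene, with the element in capitals, because the same element stands before genes on both sides of the split.
HSPA6, chr1:161524457-161524486, plus strand, 61 bases before the start: gcggaaaggTTCGCGAAAGTTCgcggcggc
HSPA8, chr11:123062171-123062200, minus strand, 42 bases before: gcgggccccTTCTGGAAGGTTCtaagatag
HSP90AA1, chr14:102087112-102087141, minus strand, 75 bases before start 2: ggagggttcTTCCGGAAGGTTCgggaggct
HSP90AB1, chr6:44247822-44247851, plus strand, 99 bases before start 3: ctgagattgTTCTGGAAGCTTCtggattct
HSPA1A, chr6:31815426-31815455, plus strand, 98 bases before: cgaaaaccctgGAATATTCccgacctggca
HSPA1B, chr6:31827622-31827651, plus strand, 97 bases before: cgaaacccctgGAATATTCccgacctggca
DNAJB1, chr19:14518456-14518485, minus strand, 69 bases before start 2: cgggcggggcgGAAGGTTCtggagggggct
HSPA8 held a further 3-unit match 217 bases before its start, and HSP90AB1 held another 152 bases before start 3. DNAJB1 held a second 2-unit match 39 bases before start 2, and HSP90AA1 a separate one 60 bases before start 2. All 250 bases of the HSPA8 window fall in annotated GENCODE exons. So do 77 bases of the window of HSP90AB1 start 3 and 10 of that of DNAJB1 start 2. A match is a pattern of letters and not a measured binding site. Only exact units were searched, so a missing or shorter match does not show that an element is absent or weaker.

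**Figure D2:**
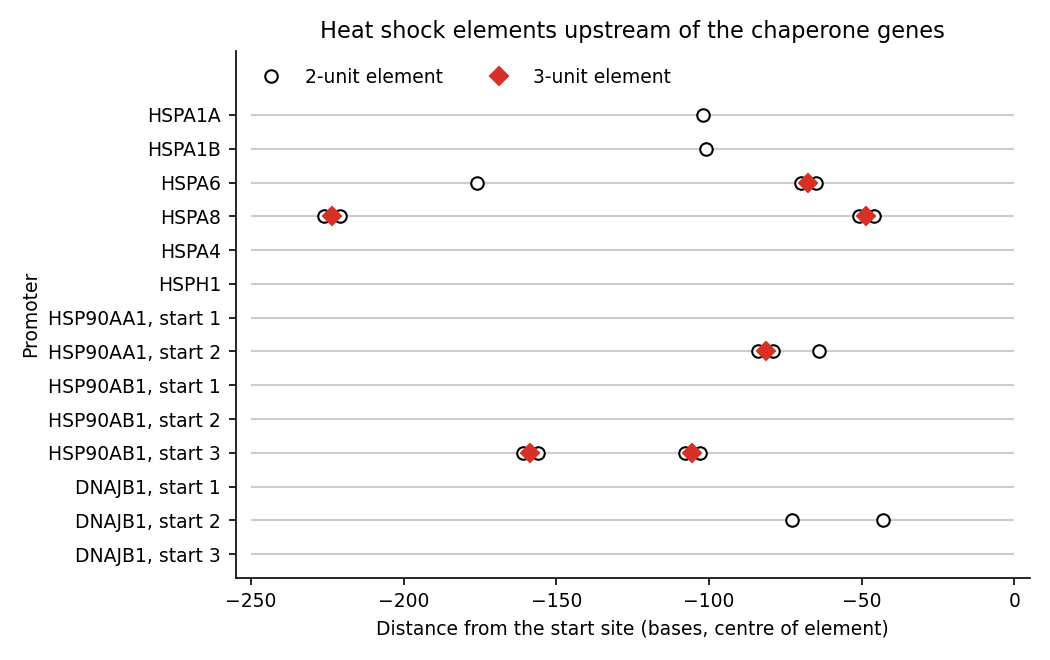
Position of heat shock element matches in the 250 bases before each RefSeq start site, with distance in bases on the x axis and 1 line for each promoter of the 9 genes. Open circles are 2-unit and diamonds 3-unit matches. HSPA6, HSPA8, HSP90AA1 and HSP90AB1 carry diamonds, and HSPA4 and HSPH1 carry neither.

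HSPA6 and HSPA7 stood farthest from the other genes. HSPA6 (ENSG00000173110, chr1:161524540-161526894, plus strand, hg38, a single exon) encodes a strictly stress-induced HSP70 with no counterpart in mouse. It was at 3.43 and 1.95 TPM in NC against 13.1 and 17.6 TPM in sh-ANP32B. The lower sh-ANP32B sample was well above the higher NC sample, and the means of 2.69 ± 1.04 and 15.4 ± 3.18 TPM (SD, n = 2 each) gave a ratio of 5.71. Its log2 fold change was 2.16 (SE 0.28), rank 11 from the top of 16817 genes. HSPA7 (ENSG00000225217, chr1:161606291-161608217, plus strand, a single exon) is annotated as an unprocessed pseudogene of HSPA6. It was at 21.8 and 23.9 TPM in NC against 86.4 and 132.9 TPM in sh-ANP32B. Both sh-ANP32B samples were again above both NC samples, with means of 22.8 ± 1.52 and 109.6 ± 32.9 TPM (SD, n = 2 each), a ratio of 4.80 and a log2 fold change of 2.18 (SE 0.22), rank 10 of 16817. In every sample the pseudogene was listed above its parent gene, and HSPA6 made up 13.6%, 7.56%, 13.2% and 11.7% of the summed level of the pair in NC 1, NC 2, sh-ANP32B 1 and sh-ANP32B 2.

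The HSPA6 and HSPA7 transcripts were 98.24% identical over 1933 aligned positions, with 27 mismatches and 7 gap positions. Of all stretches of 50 bases in HSPA6, 45.8% also occur in HSPA7, and 27.8% of those of 100 bases do, so reads from one can be counted on the other and the split between the 2 levels is uncertain. With the TPM of the pair summed before the log, the log2 fold change was 2.22 (SE 0.21). The first 120 coding bases are the same in both. The stretch of 120 bases with the most differences (8, in capitals) is shown, since within the alignment only reads over such positions can tell the 2 genes apart. The HSPA6 transcript, of 2355 bases, also reaches past the alignment.
HSPA6, chr1:161525082-161525201, plus strand: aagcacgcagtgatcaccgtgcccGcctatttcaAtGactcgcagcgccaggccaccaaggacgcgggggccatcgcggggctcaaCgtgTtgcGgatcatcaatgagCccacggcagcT
HSPA7, chr1:161606714-161606833, plus strand: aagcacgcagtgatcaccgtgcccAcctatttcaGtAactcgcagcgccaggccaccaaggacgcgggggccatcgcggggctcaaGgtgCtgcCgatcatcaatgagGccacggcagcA
The upstream window of HSPA6, chr1:161524290-161524539 on the plus strand, is given whole because it holds the 3-unit element and 1 separate 2-unit element 172 bases before the start, both in capitals.
HSPA6 upstream: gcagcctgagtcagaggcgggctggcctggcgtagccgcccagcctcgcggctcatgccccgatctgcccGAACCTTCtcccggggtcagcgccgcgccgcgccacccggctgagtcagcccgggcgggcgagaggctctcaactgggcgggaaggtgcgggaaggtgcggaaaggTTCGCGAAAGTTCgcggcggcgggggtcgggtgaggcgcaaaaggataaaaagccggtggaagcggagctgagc

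Both genes lie in the low-affinity Fc gamma receptor locus, 81751 bases apart from start to start, and each follows a receptor gene on the same strand. HSPA6 begins 526 bases after the end of FCGR2A, and HSPA7 begins 628 bases after the end of FCGR2C. FCGR2A was at 60.9 and 62.3 TPM in NC against 76.7 and 74.1 TPM in sh-ANP32B, a log2 fold change of 0.29 that did not pass the test (limma adjusted p = 0.244). FCGR2C rose from 43.8 and 48.7 TPM to 206.1 and 211.1 TPM (log2 fold change 2.15, SE 0.13, adjusted p = 0.00941), and FCGR2B, the inhibitory receptor, rose from 30.1 and 31.2 TPM to 121.9 and 125.2 TPM (1.98, SE 0.13, adjusted p = 0.00941). FCGR2C is a near copy of its neighbours, so its split from FCGR2B and FCGR2A is uncertain as well. HSPA7 was at 49.6%, 49.1%, 41.9% and 62.9% of the level of FCGR2C, the gene before it, in NC 1, NC 2, sh-ANP32B 1 and sh-ANP32B 2. HSPA6 stood beside FCGR2A and went from 5.63% and 3.13% of its level in NC to 17.1% and 23.8% in sh-ANP32B. Whether reads past the end of the receptor genes enter the HSPA6 and HSPA7 values was not tested. FCGR3A and FCGR3B were not analysed here.

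**Figure D3:**
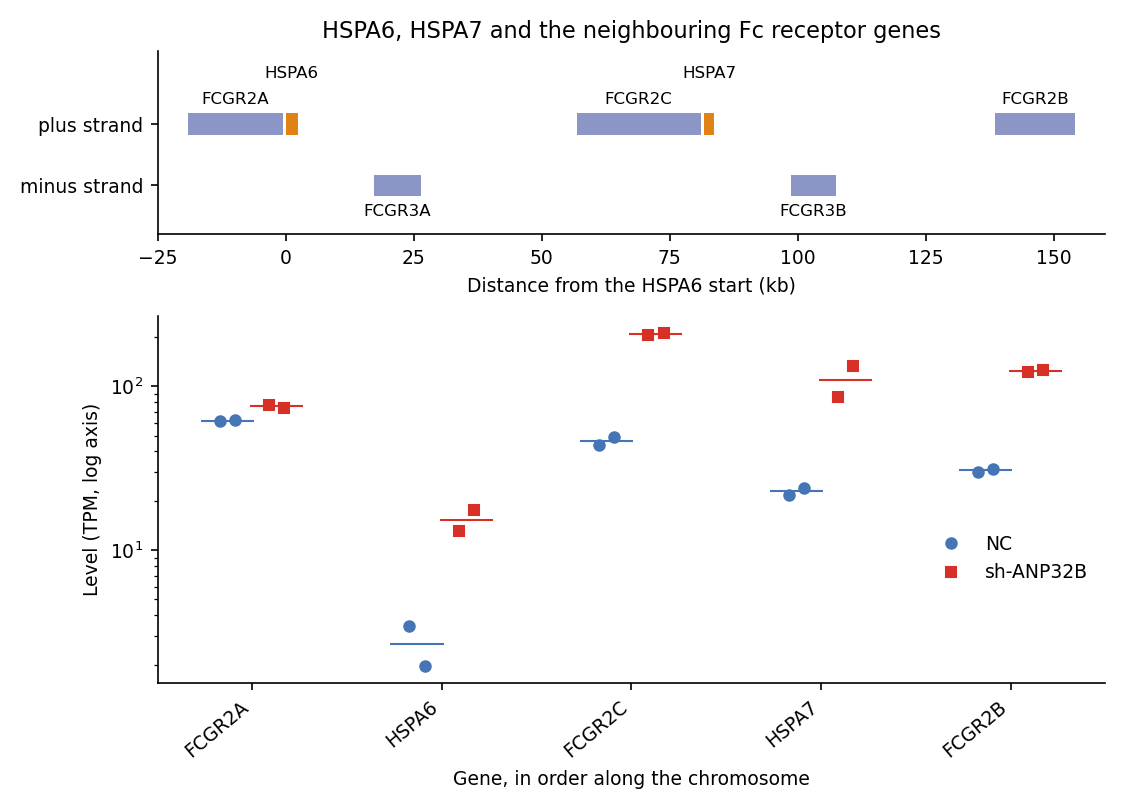
Upper panel, map of the locus to scale, with distance from the HSPA6 start in kb and the 2 strands on separate lines. Lower panel, TPM on a log axis for the 2 NC (circles) and 2 sh-ANP32B (squares) samples, lines at the means. HSPA6, FCGR2C, HSPA7 and FCGR2B are each higher in both sh-ANP32B samples, with ratios of means from 4.03 to 5.71, and FCGR2A is at 62.3 against 76.7 TPM at most.

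Markers of mature myeloid cells, which express Fc receptors, were compared beside these genes. The 8 of 10 listed markers summed to 863 and 914 TPM in NC and to 1681 and 1711 TPM in sh-ANP32B, and without LYZ, the most abundant, to 194 and 217 against 321 and 395 TPM. All 8 had a positive log2 fold change, and 7 were higher without overlap, as 33.2% of all genes were. LYZ, which encodes lysozyme, was the 1 of 8 that passed the test (0.97, limma adjusted p = 0.0281). In the same fit 7 of the 8 had an unadjusted p under 0.05, as 3995 of all 16817 genes did. Their median log2 fold change was 0.91. CD14 and FCN1 were not analysed here. The 7 of 9 listed progenitor markers were also all higher in both sh-ANP32B samples, with a median log2 fold change of 0.44. In limma 0 of them were past the adjusted threshold and 4 had an unadjusted p under 0.05, where 3995 of all 16817 genes had one. The part of cell state in the HSPA6 and HSPA7 values was not tested, and in bulk samples a change in the share of cells and a change in RNA per cell cannot be told apart.

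HSPA1A and HSPA1B, the classical inducible HSP70 genes, lie side by side in the major histocompatibility complex and encode nearly the same protein. HSPA1A (ENSG00000204389, chr6:31815543-31817946, plus strand) was at 1.89 and 1.96 TPM in NC against 2.76 and 4.30 TPM in sh-ANP32B, a log2 fold change of 0.61 (SE 0.30). HSPA1B (ENSG00000204388, chr6:31827738-31830254, plus strand, 9791 bases after the end of HSPA1A) was at 3.69 and 3.07 TPM in NC against 4.52 and 6.62 TPM in sh-ANP32B, a log2 fold change of 0.57 (SE 0.27). In both genes the sh-ANP32B samples were above the NC samples but differed widely, with sample 2 at the top. The ratios of means were 1.83 and 1.65. Their transcripts were 98.65% identical over 2148 positions and 75.1% of the 50-base stretches of HSPA1A also occur in HSPA1B, so the 2 values are not separate measurements. Summed, the pair had a log2 fold change of 0.66 (SE 0.25).

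DNAJB1 (ENSG00000132002, chr19:14514769-14560391, minus strand), the J-domain partner that delivers clients to inducible HSP70, was at 39.7 and 35.7 TPM in NC against 47.5 and 52.4 TPM in sh-ANP32B. The sh-ANP32B samples were both higher, by more than the gap between the NC samples, and the means of 37.7 ± 2.82 and 49.9 ± 3.47 TPM (SD, n = 2 each) gave a log2 fold change of 0.40 (SE 0.15).

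The abundant chaperones were lower in sh-ANP32B. HSPA8 (ENSG00000109971, chr11:123057489-123063230, minus strand) encodes the constitutive cognate HSP70, which also uncoats clathrin vesicles and serves chaperone-mediated autophagy. It was at 567 and 571 TPM in NC against 359 and 283 TPM in sh-ANP32B. The NC samples lay close together, and the sh-ANP32B mean was 56.4% of the NC mean, with a log2 fold change of -0.83 (SE 0.15), rank 406 from the bottom of 16817 genes. HSP90AA1 (ENSG00000080824, chr14:102080742-102139699, minus strand), the stress-responsive HSP90 alpha, was at 409 and 436 TPM in NC against 291 and 222 TPM in sh-ANP32B. No sh-ANP32B sample reached the NC range, and the mean was 60.8% of that in NC (log2 fold change -0.73, SE 0.16). HSP90AB1 (ENSG00000096384, chr6:44246166-44253888, plus strand), the constitutive HSP90 beta, was at 1528 and 1521 TPM in NC against 1134 and 974 TPM in sh-ANP32B. It kept 69.1% of its NC mean (log2 fold change -0.54, SE 0.13) and was the most abundant of the 10 genes in all 4 samples.

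Processed copies of these genes share part of their sequence. Of the 50-base stretches of HSPA8, HSP90AA1 and HSP90AB1, 16.5%, 17.5% and 18.8% occur in another gene, and at 100 bases the shares are 0.0%, 2.1% and 1.6%. The copies in the table were far below the parents: HSP90AB3P was at 12.9 to 16.2 TPM in NC and 6.34 to 12.3 TPM in sh-ANP32B, HSP90AA2P at 2.33 to 4.24 TPM and HSPA8P15 at 0.68 to 2.02 TPM over all samples.

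HSPA4 and HSPH1 encode HSP110 proteins, which act as nucleotide exchange factors of HSP70 and as holdases in disaggregation. HSPA4 (ENSG00000170606, chr5:133052013-133106449, plus strand) was at 19.8 and 20.1 TPM in NC against 17.5 and 13.9 TPM in sh-ANP32B (log2 fold change -0.34, SE 0.19). HSPH1 (ENSG00000120694, chr13:31134973-31162388, minus strand) was at 40.2 and 43.8 TPM in NC against 39.0 and 26.6 TPM in sh-ANP32B (-0.37, SE 0.21). In both, sh-ANP32B sample 1 was just under the NC samples and sample 2 carried most of the difference. Without sh-ANP32B sample 2 the log2 fold changes were -0.18 for HSPA4 and -0.10 for HSPH1.

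Since TPM is per length, levels can be ordered between genes. In NC the order of mean TPM was HSP90AB1, HSPA8, HSP90AA1, HSPH1, DNAJB1, HSPA7, HSPA4, HSPA1B, HSPA6 and HSPA1A, from rank 83 to rank 14123 among all genes. The values of HSPA6 overlapped those of HSPA1B above it and of HSPA1A below it, so HSPA6 cannot be placed against either, while HSPA1B was above HSPA1A in both NC samples. In sh-ANP32B HSPA7 stood directly after HSP90AA1, DNAJB1 came before HSPH1, and HSPA6 had reached the level of HSPA4, with overlapping samples. HSPA8 and HSP90AA1 also overlapped in sh-ANP32B, which they did not in NC.

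The balance among the HSP70 genes moved accordingly, while both HSP90 genes fell. The 5 HSP70 genes HSPA1A, HSPA1B, HSPA6, HSPA7 and HSPA8 summed to 597 and 602 TPM in NC and to 466 and 444 TPM in sh-ANP32B. HSPA1A, HSPA1B, HSPA6 and HSPA7 made up 5.15% and 5.13% of that sum in NC and 22.9% and 36.3% in sh-ANP32B. With the HSPA7 pseudogene left out the shares were 1.57% and 1.21% in NC and 5.37% and 9.17% in sh-ANP32B. The HSPA8 level was 101.5 and 113.4 times that of HSPA1A and HSPA1B together in NC, and 49.3 and 25.9 times in sh-ANP32B. HSP90AA1 and HSP90AB1 summed to 1937 and 1957 TPM in NC and to 1426 and 1196 TPM in sh-ANP32B, and the share of HSP90AA1 in the sum was 21.1% and 22.3% in NC and 20.4% and 18.6% in sh-ANP32B. All 10 genes together took 0.264% and 0.266% of the table in NC, and 0.2% and 0.174% in sh-ANP32B.

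GC content separated the higher from the lower genes completely. Across 15427 genes it had a Spearman rho of 0.16 with the log2 fold change. Transcript GC was 56.3% to 61.1% in the 5 higher genes and 39.6% to 48.1% in the 5 lower ones, and within sh-ANP32B all 5 higher genes were higher in sample 2 than in sample 1 and all 5 lower genes were lower. A correction of each sample for transcript GC content left the sign of all 10 as it was. The log2 fold changes became 1.97 for HSPA6, 1.96 for HSPA7, 0.40 for HSPA1A, 0.37 for HSPA1B and 0.23 for DNAJB1 on the higher side, and -0.87 for HSPA8, -0.76 for HSP90AA1, -0.59 for HSP90AB1, -0.38 for HSPH1 and -0.36 for HSPA4 on the lower. With sh-ANP32B sample 1 alone, which lay nearer to NC in all 10 genes, HSPA6 was at 1.96, HSPA7 at 1.88, HSPA8 at -0.66, HSP90AA1 at -0.53 and HSP90AB1 at -0.43. The values of DNAJB1, HSPA1A and HSPA1B were then 0.33, 0.36 and 0.34.

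**Figure D4:**
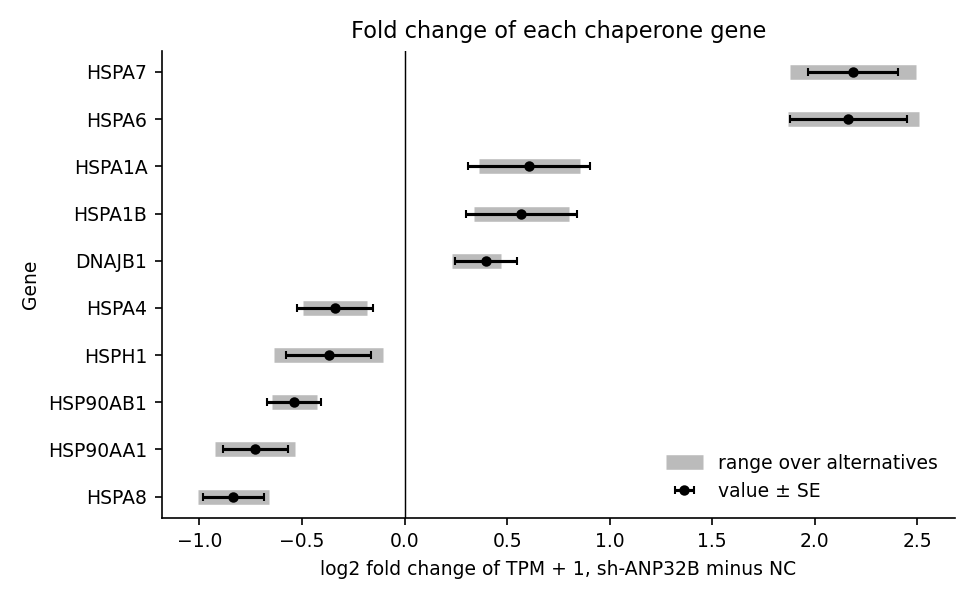
Log2 fold change of TPM + 1, sh-ANP32B minus NC, for each chaperone gene. Points are the values with bars of 1 SE, and grey bands span the alternative scalings, filters, corrections and left-out samples. No band crosses 0, from 1.88 to 2.49 for HSPA7 down to -1.01 to -0.66 for HSPA8. The groups of these genes did not overlap, so a left-out sample could not carry a band across 0.

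The rest of the chaperone network was read from 8 lists of 91 genes, of which 77 were tested. In limma 1 of the 77 rose and 2 fell at an adjusted p under 0.05, or 3.9% against 3.32% of all genes. The share depended on the fit: after the GC correction 27 of 77 passed, 24 of them lower, or 35.1% against 16.4% of all genes, and without sh-ANP32B sample 1 or sample 2 it was 39% against 24.3% or 35.1% against 20.7%. Without NC sample 1 or 2 it was 2.6% against 1.93% or 1.3% against 1.62%. By sign, 50 of the 77 were lower and 27 higher, with a median log2 fold change of -0.15 against 0.08 over all genes. Groups did not overlap in 33 with sh-ANP32B lower and in 11 with it higher, against 21.4% and 33.2% of all genes.

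DNAJB2, a J-domain protein with ubiquitin-interacting motifs, was the gene that rose. It went from 8.44 and 10.3 TPM in NC to 28.1 and 38.2 TPM in sh-ANP32B (log2 fold change 1.71, SE 0.21, limma adjusted p = 0.0299). The other 17 J-domain genes did not pass, DNAJC7 and DNAJC8, the most abundant of them, had values of 0.09 and -0.45, and the list's median was -0.05. The 2 genes that fell were HSPD1 and HSPE1, which encode the mitochondrial chaperonin HSP60 and its lid HSP10 and share a bidirectional promoter. HSPD1 fell from a mean of 821 to 472 TPM (-0.80, SE 0.14, adjusted p = 0.0440) and HSPE1 from 150 to 85.6 TPM (-0.80, SE 0.13, adjusted p = 0.0392). Without NC sample 1 the adjusted p was 0.236 for HSPD1 and 0.181 for HSPE1, and without NC sample 2 it was 0.181 and 0.286. They stood in a list of 9 tested heat-inducible genes with a median of -0.07. HSPD1 was also 1 of 4 genes among the 74 of the network with a promoter that held a 3-unit heat shock element, with CHORDC1, DNAJB6 and SERPINH1.

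Among the 21 co-chaperones of HSP90, 0 passed in limma and 9 had an unadjusted p under 0.05, where 3995 of all 16817 genes had one. The median was -0.27, 16 of 21 were lower, and 11 of 21 were lower without overlap, against 21.4% of all genes. PTGES3, the p23 cochaperone that holds HSP90 in its closed form, was at -0.30 (adjusted p = 0.259), and CDC37, which brings kinases to HSP90, at 0.14. PTGES3 was at -0.46 (adjusted p = 0.00319) without sh-ANP32B sample 1 and at -0.15 without sample 2. After the GC correction 11 of the 21 passed, all lower, with PTGES3 at -0.33 (adjusted p = 0.0462) and a median of -0.35, where 8.9% of all genes passed as lower. Of the 9 HSP70 exchange factors and cofactors, 0 passed and 0 had an unadjusted p under 0.05, with ST13 at -0.18, STUB1 at 0.21 and a median of -0.15. The 3 tested of the other HSP70 genes, HSPA13 and HSPA14 among them, were at -0.15 to -0.32 and 0 had an unadjusted p under 0.05.

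HSF1, the main regulator of the heat shock response, was at a mean of 142 TPM in NC against 157 TPM in sh-ANP32B (0.13, limma adjusted p = 0.654, and -0.13 after the GC correction), and HSF4 was at 0.68 (adjusted p = 0.160). Of the 4 tested regulators 0 passed and 1 had an unadjusted p under 0.05, where 3995 of all 16817 genes had one. The small heat shock proteins HSPB1, at -0.38, and HSPB6, at 0.02, did not pass, and 0 of them had an unadjusted p under 0.05. HSPB1 was at -0.046 without sh-ANP32B sample 1, at -0.71 (adjusted p = 0.00138) without sample 2 and at -0.63 (adjusted p = 0.0141) after the GC correction. Of the 11 organelle paralogs and partners 0 passed and 4 had an unadjusted p under 0.05. Among them the reticulum HSP70 gene HSPA5 was at a mean of 246 TPM in NC against 250.5 TPM in sh-ANP32B (0.02), and HSP90B1, the reticulum HSP90, was at -0.41 (adjusted p = 0.152). HSP90B1 passed after the GC correction (-0.43, adjusted p = 0.0172), without sh-ANP32B sample 1 (-0.57, adjusted p = 0.00157) and without sample 2 (-0.26, adjusted p = 0.0474).

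**Figure D5:**
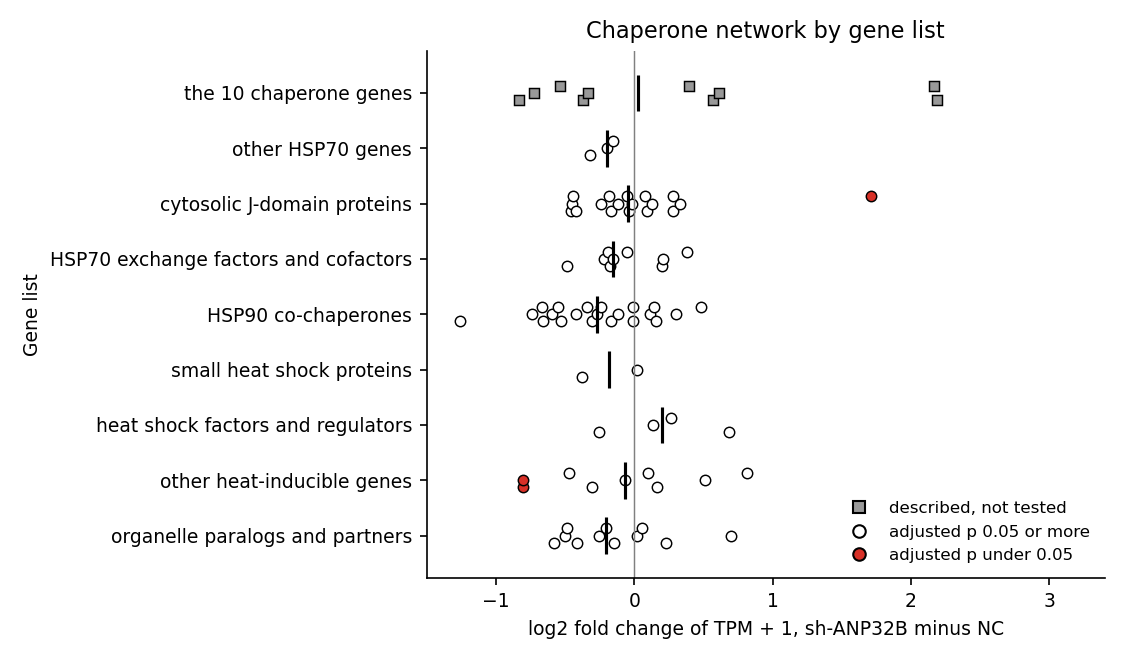
Log2 fold change of TPM + 1, sh-ANP32B minus NC, for each tested gene of the 8 network lists and, as grey squares without a test, the 10 chaperone genes. Bars mark list medians and filled circles an adjusted p under 0.05. DNAJB2 at 1.71 and HSPD1 and HSPE1 at -0.80 are filled, and the HSP90 co-chaperones centre on -0.27.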

How the data were processed

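The authors aligned the reads to hg38 with HISAT2 2.0.5, per the labels and the methods, and deposited 1 table of TPM per gene for the 4 samples. The program and annotation that gave the TPM, and any filter on genes, are not given in the sources used here. The study tested counts with DESeq2, which TPM does not allow. Here log2(TPM + 1) was fitted with limma 3.58.1 (R 4.3.3, abundance trend, no covariate) over genes that reached 1 TPM in 2 or more samples, with Benjamini-Hochberg adjustment over all 16817, after the fit was tested on simulated data. Ensembl identifiers were matched to GENCODE release 44 (16986 of 18567), which also gave transcripts for GC content and alignment (Biopython 1.88), and promoters came from RefSeq. A fold change on this scale understates the change of low genes. The 10 genes, the 8 network lists and the myeloid marker lists were chosen with earlier results of these data known. Beyond the 10, the text names ANP32B, the neighbours of HSPA6 and HSPA7, and in each network list the genes past the adjusted threshold (at most 6) and the 2 of highest mean TPM, except for items that are not reported here. Marker genes and the 4 genes with a 3-unit element were named after their values were seen. Alternatives covered the pseudocount, filters, scaling, GC content, the variance trend, a replicate block, protein-coding genes and each left-out sample. Depth is unknown, so no counting interval was given.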

Additional observations from a re-analysis of the deposited data

How the results depend on the processing

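All 10 chaperone genes kept their sign under every alternative in which they could be fitted and without each sample in turn. Their groups did not overlap, so neither a left-out sample nor another pseudocount could change a sign. The filters, the variance trend, the replicate block and the limit to protein-coding genes leave a fold change as it is. Only the rescalings and the GC correction could have changed a sign. HSPA7 could not be fitted among protein-coding genes. Of the 559 genes past the adjusted threshold, 360 were higher and 199 lower. This split shifted with the scaling, to 236 and 284 by median-of-ratios, 241 and 227 by upper quartile, 314 and 232 without mitochondrial genes and 244 and 234 after quantile normalization. The median over all genes moved from 0.08 to 0.0054, 0.03, 0.04 and -0.0081. The GC correction called 2534 of 15427 genes (1161 higher, 1373 lower), protein-coding genes alone gave 966, and a fit without the abundance trend gave 0 (3701 at an unadjusted p under 0.05). Leaving out a sample gave 273 to 4079, with 324 and 273 without NC 1 and NC 2 and 4079 and 3487 without sh-ANP32B 1 and 2, where the lone sample is assumed to vary like the other group.

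The 3 called network genes became 6 with 1 TPM required in every sample, 5 by median-of-ratios, 27 with the GC correction (3 higher, 24 lower), 9 among protein-coding genes, 0 without the trend (14 at an unadjusted p under 0.05) and 1 to 30 without a sample. The 3 chaperone genes past the threshold became 5 with the GC correction, 0 without the trend (6 at an unadjusted p under 0.05) and 2 to 7 without a sample. The share of all genes past the threshold also moved, from 3.32% to 5.61% with 1 TPM required in every sample and 3.09% by median-of-ratios. It was 16.4% with the GC correction and 8.58% among protein-coding genes. The network shares in these fits, in the same order, were 3.9%, 7.89%, 6.49%, 35.1% and 11.7%. Without a sample the number of all genes past the threshold moved too, as given above. So a changed count alone is not read as particular to these genes. Without the trend DNAJB2, HSPD1, HSPE1, FCGR2C and FCGR2B had limma adjusted p values of 0.114, 0.129, 0.121, 0.0929 and 0.0929. In that fit the targeted gene ANP32B, at a log2 fold change of -3.04, did not pass either (adjusted p = 0.0929). Besides PTGES3, HSPB1 and HSP90B1, DNAJC8 gained a call with the GC correction (adjusted p = 0.0125) and without sh-ANP32B 1 (0.00246) or 2 (0.0240), and ST13 (0.0381), STUB1 (0.00892), CDC37 (0.00285), HSF1 (0.0320) and HSF4 (0.00638) did without sh-ANP32B 1.

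The labels share the numbers 1 and 2 between groups, but nothing says that they pair samples, and deviations of same-numbered samples had a Pearson correlation of -0.09 over genes. With a replicate block 1473 genes (8.76%), 8 network genes (10.4%) and 4 chaperone genes passed. With block and GC correction the numbers were 1806 (11.7%), 20 (26%) and 5.

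Small values changed sign. HSPB6 was at -0.022 with a pseudocount of 0.1. By median-of-ratios, by upper quartile, without mitochondrial genes, after quantile normalization and with the GC correction, with or without the block, HSPB6 was at -0.033, -0.018, -0.010, -0.13 and -0.22, and HSPA5 at -0.069, -0.043, -0.030, -0.00080 and -0.0054. With the GC correction, in both fits, STUB1 was at -0.058, CDC37 at -0.067 and HSF1 at -0.13. Without a sample DNAJC7 ranged from -0.071 to 0.26, HSPB6 from -0.37 to 0.41, HSPA5 from -0.12 to 0.16, HSPA13 from -0.35 to 0.044, STUB1 from -0.19 to 0.60, CDC37 from -0.26 to 0.54 and HSF1 from -0.045 to 0.31. The cause of these changes was not tested.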
